A study of Drosophila melanogaster with 10 samples.

Results

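Antimicrobial peptide genes were followed in the brains of flies kept on diets with and without protein. All 10 genes of the set, out of 11621 genes in the deposited table, were found by their names: the attacins AttA, AttB, AttC and AttD, the diptericins DptA and DptB, drosocin (Dro), drosomycin (Drs), metchnikowin (Mtk) and defensin (Def). RNA came from the brains of Drosophila melanogaster males aged 4 to 7 days, of the white-eyed laboratory strain w1118, which is labelled wild type. The low-protein, high-carbohydrate group (LPHC) had 5 libraries from flies fed protein and carbohydrate as 0 to 1, and the high-protein, low-carbohydrate group (HPLC) had 5 from flies fed them as 1 to 2, both at 360 g per L. Per the series design, taste responses to sucrose were lower after the LPHC diet and higher after the HPLC diet, and the comparison asks how brain transcripts differ between them. The labels mention no infection, do not say how many brains made up a library, and leave unsaid if they are from separate cultures, so p-values reflect only the spread of these libraries, part of which may be technical.

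Antimicrobial peptides are short secreted proteins that kill bacteria or fungi. In flies they come mainly from the fat body, and also from haemocytes, epithelia and some cells of the nervous system, glia among them. A pair of signalling routes switches on their genes. The Imd route, set off by peptidoglycan of the diaminopimelic acid type, ends in the NF-κB factor Relish. The Toll route, set off by other peptidoglycans, fungal glucans and microbial proteases, ends in the NF-κB factors Dif and dorsal. The diptericins and drosocin follow mainly Imd, drosomycin mainly Toll, and attacins, defensin and metchnikowin take input from both.

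Def showed the widest diet difference of the 10 genes, at 38.2-fold higher on HPLC. AttB and AttC were 8.37-fold and 6.69-fold higher, and Drs and Dro 2.21-fold and 2.04-fold higher, as ratios of mean normalised read counts. DptA and DptB had higher means on HPLC and were not called; LPHC replicate 2 alone of its diet reached into the HPLC range for them, as it did for Dro. AttD had a higher mean on HPLC with wide overlap and was not called. AttA differed by less than its spread. Mtk went the other way and was 3.26-fold lower on HPLC.

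The genes were tested with limma on log2(normalised read count + 1), with p-values adjusted by the Benjamini-Hochberg method over all genes tested and called at 0.05. Of the 10 genes, 7 had a mean normalised read count of at least 10 and entered that fit of 9896 genes, and their LPHC means alone were also above 10. It called 5 of the 7 higher on HPLC and none lower, against 22.1% of all tested genes called higher and 18.9% lower (40.9% in either direction). Of all calls 53.9% were higher, and this share was 35.0% under upper-quartile scaling, 30.1% under quantile normalization and 94.0% when neuron markers set the scale, while the 5 members were called higher under each. All 5 differed at least 2-fold, as did 6.41% of tested genes in that direction. edgeR and DESeq2 on the recovered reads called the same 5 genes (5 of 5 shared with limma in each), against 21.8% and 22.5% of tested genes called higher. The median log2 fold change of the 7 was 1.81, beside −0.03 over all 9896 genes. AttA, AttD and Mtk, with means of 9.81, 8.41 and 9.68, were under that level and have values from a fit of all 11621 genes without a filter, where 18.9% of genes were called higher and 15.5% lower.

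**Figure D1:**
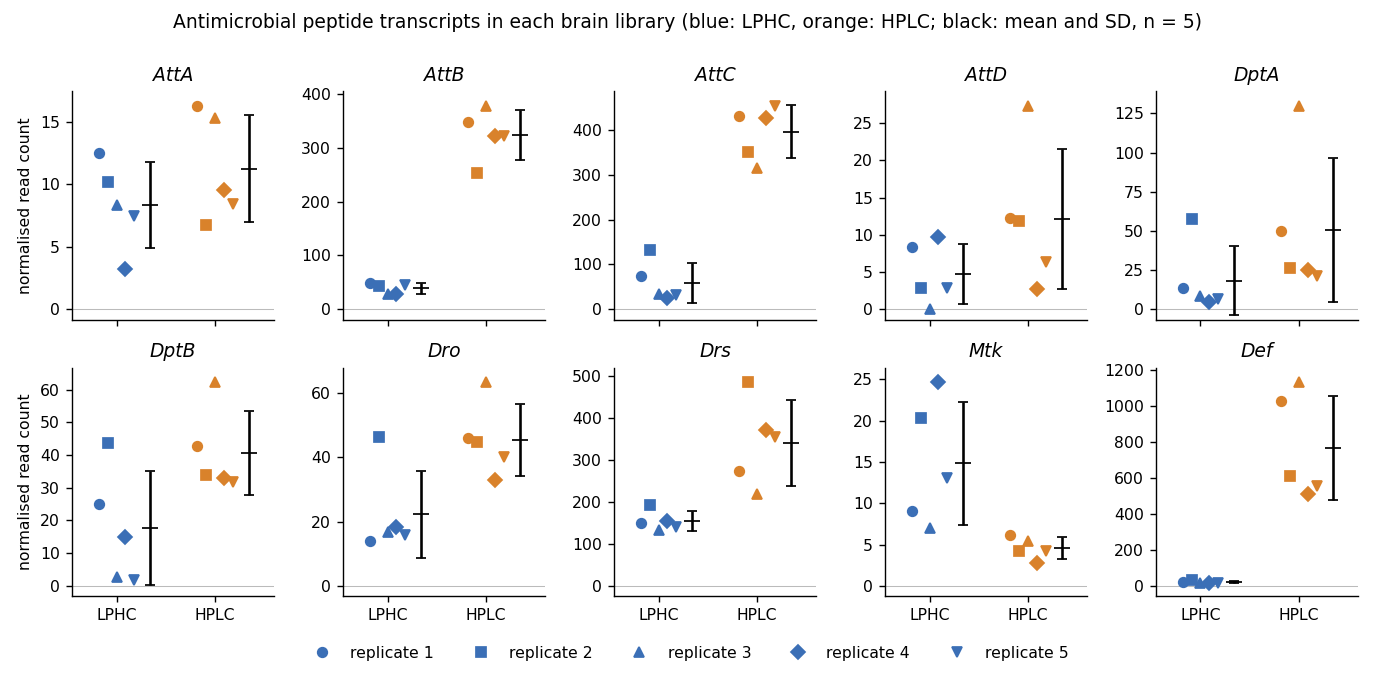
Normalised read count (vertical axis, a separate linear scale for each gene) of the 10 antimicrobial peptide genes in each library, LPHC in blue and HPLC in orange, with replicate numbers as marker shapes and the mean and SD (n = 5) in black. AttB, AttC, Drs and Def do not overlap between diets and are higher on HPLC, Mtk does not overlap and is lower, and LPHC replicate 2 stands among the HPLC libraries for DptA, DptB and Dro.

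The libraries held between 19834344 and 38402635 recovered reads, and a count of 3 reads corresponded to a normalised read count of 2.09 in the deepest and 4.19 in the shallowest. Neuron markers took 1.34% to 1.57% of reads on LPHC and 1.13% to 1.32% on HPLC, and photoreceptor genes 11.7% to 12.9% and 8.71% to 10.8%, in libraries labelled as brain. Markers of fat body and haemocytes were present as well and are given further below.

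Defensin, a peptide active mainly against Gram-positive bacteria, rose the most of the tested members. Its normalised read counts in LPHC replicates 1 to 5 were 22.9, 29.8, 16.7, 13.9 and 16.8. In HPLC replicates 1 to 5 they were 1024, 609, 1131, 512 and 553. Every HPLC library was above every LPHC library by a wide margin, and within HPLC replicates 1 and 3 stood apart from the other three. The means were 20.04 ± 6.35 and 766 ± 289 (SD, n = 5 each), and the log2 difference between diets was 5.16 ± 0.25 (SE; limma, adjusted p = 1.10e-09). By size of rise Def was number 14 of the 9896 tested genes. Its gene lies within the span of magu on the other strand, with no shared exon in the Ensembl annotation, and magu rose by 0.31 ± 0.08 on the log2 scale (limma adjusted p = 0.00393).

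Attacins are glycine-rich peptides active against Gram-negative bacteria, and members of this family differed from each other. AttB normalised read counts were 48.7, 43.6, 27.9, 27.9 and 45.7 in LPHC replicates 1 to 5 and 348, 253, 378, 322 and 321 in HPLC replicates 1 to 5. The diets were far apart, and AttB had the tightest spread of the 7 tested members. Its means were 38.7 ± 10.1 and 324 ± 46.4 (SD, n = 5 each), and the log2 difference between diets was 3.06 ± 0.17 (SE; limma, adjusted p = 1.12e-10). Def and AttB were called at a log2 difference of 3 or more, as were 0.808% of tested genes, and AttC was just under it.

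AttC normalised read counts were 74.4, 131, 33.5, 24.7 and 31.7 in LPHC replicates 1 to 5. In HPLC replicates 1 to 5 they were 430.1, 351, 316, 426 and 454. LPHC replicate 2 was the highest of its diet and still well below the lowest HPLC library. The means were 59.1 ± 44.9 and 395 ± 58.8 (SD, n = 5 each), and the log2 difference between diets was 3.0 ± 0.43 (SE; limma, adjusted p = 4.07e-04). The exons of AttC overlap those of CG4744 on the other strand, which was listed at 3.03 ± 1.43 and 2.98 ± 1.15 (SD, n = 5 each).

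AttA, the neighbour and near copy of AttB, was low in every library. Its normalised read counts were 12.5, 10.2, 8.37, 3.22 and 7.46 in LPHC replicates 1 to 5 and 16.3, 6.76, 15.3, 9.59 and 8.42 in HPLC replicates 1 to 5, from 3 to 18 reads a library. The diets overlapped through most of their range. In the fit without a filter the log2 fold change was 0.42 ± 0.34 (SE; limma, adjusted p = 0.369), with a 95% confidence interval from −0.29 to 1.14 that does not reach the difference of AttB. Taken as the log2 ratio of AttB to AttA within each library, the pair moved from 2.15 ± 0.46 (LPHC) to 4.79 ± 0.33 (HPLC; SD, n = 5 each). This ratio was chosen after the values were seen, so no p-value is given for it. Reads of AttA and AttB may be shared or discarded, so the split between the copies is uncertain. Their sum does not depend on that split among counted reads: it was 47.1 ± 12.8 in the LPHC libraries and 336 ± 50.04 in the HPLC libraries (SD, n = 5 each), 7.12-fold higher (exact permutation p = 0.00794 two-sided). Fitted as 1 gene, the pair differed by 2.84 ± 0.17 on the log2 scale (SE; limma, adjusted p = 8.39e-10).

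AttD, an attacin without a secretion signal, was close to the counting floor. Its normalised read counts were 8.34, 2.90, 0, 9.65 and 2.80 in LPHC replicates 1 to 5 and 12.2, 11.8, 27.3, 2.74 and 6.32 in HPLC replicates 1 to 5. Of the HPLC libraries 3 were above every LPHC library and the others lay among them. The log2 fold change without a filter was 1.30 ± 0.64 (SE, limma adjusted p = 0.135; 95% confidence interval −0.07 to 2.66), so no difference was detectable at this depth.

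Diptericins, active against Gram-negative bacteria and the usual readout of Imd activity, had wide spread within each diet. DptA normalised read counts were 13.2, 57.3, 8.37, 4.29 and 6.53 in LPHC replicates 1 to 5. In HPLC replicates 1 to 5 they were 49.9, 26.2, 130.0, 24.7 and 21.1. LPHC replicate 2 was above every HPLC library except replicate 3, which was itself the highest of all, and without these libraries the diets separate. The log2 fold change was 1.67 ± 0.68 (SE; limma, adjusted p = 0.0720; 95% confidence interval 0.17 to 3.18). It was 2.23 without LPHC replicate 2 (adjusted p = 0.00214), 1.25 without HPLC replicate 3 (adjusted p = 0.129) and 1.80 without both (adjusted p = 5.05e-04). The fit without both was added after the data were examined, with the libraries picked by these values, so its p-value is no independent support. edgeR gave 1.34 (adjusted p = 0.208) and DESeq2 1.47 (adjusted p = 0.138).

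The neighbouring gene DptB behaved likewise. Its normalised read counts were 25.03, 43.6, 2.79, 15.0 and 1.87 in LPHC replicates 1 to 5 and 42.8, 33.8, 62.3, 32.9 and 31.6 in HPLC replicates 1 to 5. LPHC replicate 2 was again above most HPLC libraries, while LPHC replicates 3 and 5 were near the floor of 3 reads. The log2 fold change was 1.81 ± 0.71 (SE; limma, adjusted p = 0.0656; 95% confidence interval 0.23 to 3.39). It passed the threshold without LPHC replicate 2 (2.30, adjusted p = 0.00713), without LPHC replicate 1 (2.10, adjusted p = 0.0333), under neuron-marker scaling (1.97, adjusted p = 0.0439) and with a pseudocount of 5 (1.36, adjusted p = 0.0481). It did not pass without LPHC replicate 5 (1.31, adjusted p = 0.107) or HPLC replicate 3 (1.65, adjusted p = 0.142), nor with edgeR (1.05, adjusted p = 0.130) or DESeq2 (1.18, adjusted p = 0.181), whose log2 differences were over 1.5 times smaller. By SD of log2 values within a diet, DptB and DptA were number 11 and 12 of the 9896 tested genes, at 1.26 and 1.21, beside a median of 0.12.

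Drosocin, a proline-rich peptide that acts on Gram-negative bacteria, rose. Dro normalised read counts were 13.9, 46.5, 16.7, 18.2 and 15.9 in LPHC replicates 1 to 5. In HPLC replicates 1 to 5 they were 45.9, 44.8, 63.4, 32.9 and 40.0. All LPHC libraries except replicate 2 were below all HPLC libraries. The means were 22.2 ± 13.6 and 45.4 ± 11.3 (SD, n = 5 each), and the log2 difference between diets was 1.11 ± 0.28 (SE; limma, adjusted p = 0.00465), and 1.41 without LPHC replicate 2.

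Drosomycin, an antifungal peptide and the usual readout of Toll activity, rose. Drs normalised read counts were 151, 193, 134, 154 and 139.9 in LPHC replicates 1 to 5. In HPLC replicates 1 to 5 they were 274, 486, 219, 371 and 355. The diets did not overlap, although HPLC replicate 3 came near LPHC replicate 2. The means were 154 ± 23.1 and 341 ± 102 (SD, n = 5 each), and the log2 difference between diets was 1.10 ± 0.18 (SE; limma, adjusted p = 2.15e-04). Within HPLC, replicates 1 and 3 were lowest for Drs and highest for Def. The log2 ratio of Def to Drs moved from −2.92 ± 0.30 (LPHC) to 1.14 ± 0.93 (HPLC; SD, n = 5 each). That ratio was also chosen after the values were seen, and no p-value is given for it.

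Metchnikowin, a peptide against fungi and Gram-positive bacteria, was the only member with a fall, at low counts of 2 to 28 reads a library. Mtk normalised read counts were 9.04, 20.3, 6.98, 24.7 and 13.1 in LPHC replicates 1 to 5. In HPLC replicates 1 to 5 they were 6.11, 4.22, 5.46, 2.74 and 4.21. Every HPLC library was below every LPHC library, by a narrow gap between HPLC replicate 1 and LPHC replicate 3. The means were 14.8 ± 7.50 and 4.55 ± 1.30 (SD, n = 5 each), and the log2 fold change without a filter was −1.41 ± 0.34 (SE, limma adjusted p = 0.00369), where 0.542% of all genes were called at least 2-fold lower. edgeR gave −1.66 (adjusted p = 0.00284) and DESeq2 −1.70 ± 0.47 (SE, adjusted p = 0.00158). The log2 ratio of Mtk to Dro, likewise chosen after the values were seen and given without a p-value, moved from −0.54 ± 0.66 (LPHC) to −3.06 ± 0.23 (HPLC; SD, n = 5 each). Mtk lies within the span of Stacl on the same strand without a shared exon, and Stacl was listed at 19340 ± 1181 with LPHC and 17562 ± 2582 with HPLC (SD, n = 5 each), a difference of −0.15 ± 0.09 on the log2 scale (SE; limma, adjusted p = 0.200). What reads from unspliced Stacl RNA add to Mtk was not tested.

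**Figure D2:**
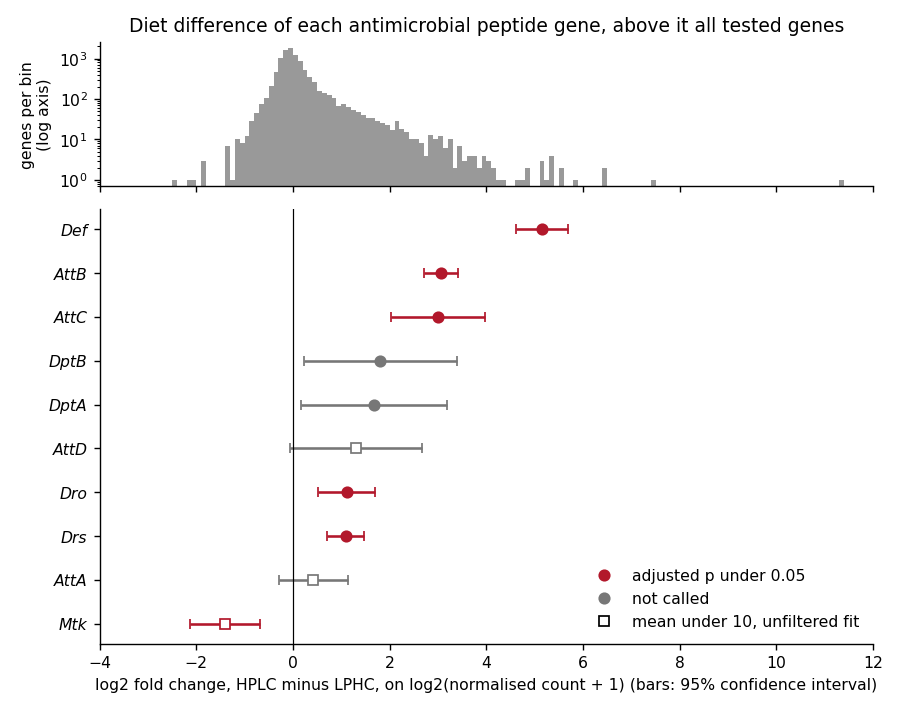
Log2 fold change of each antimicrobial peptide gene, HPLC minus LPHC, with 95% confidence intervals (lower panel; red, limma adjusted p under 0.05; grey, not called; open squares, genes with a mean under 10 from the fit without a filter) under the distribution of the 9896 tested genes (upper panel, log axis). Def lies at 5.16, AttB and AttC near 3, Dro and Drs near 1.1 and Mtk at −1.41, while most genes lie near 0.

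Counted without overlap between diets, 4 of the 10 members (AttB, AttC, Drs and Def) had every HPLC library above every LPHC library, against 15.2% of all 11621 genes, and Mtk alone had every HPLC library below, against 10.2%. For Dro, DptA and DptB 21 of 25 pairs of an HPLC and an LPHC library had the HPLC value higher. For AttD this held in 19 pairs and for AttA in 17.

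The makeup of the peptide transcripts shifted between diets. All members together took 0.000923% to 0.00208% of reads on LPHC, with the highest value in replicate 2, and 0.00598% to 0.00822% on HPLC. Drs made up 43.1% of the members' summed normalised read count on LPHC and 17.1% on HPLC, and Def 5.60% and 38.5%. The 9 members other than Def summed to 338 ± 126 (LPHC) and 1225 ± 10.2 (HPLC; SD, n = 5 each), 3.62-fold higher. The SD on HPLC is below what counting error alone would give, so it understates the uncertainty of that sum.

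Set per kilobase of annotated exon, Drs led on LPHC at 399 ± 59.7 normalised read counts per kb (SD, n = 5) and did not overlap with any other member's range. AttC (65.7), Mtk (55.3), Def (50.2), AttB (44.1), DptB (39.3), DptA (36.2) and Dro (29.5) followed, each overlapping the next, with AttA (10.6) and AttD (6.39) lowest. On HPLC the order by mean level per kb was Def (1919 ± 725), Drs (881 ± 263), AttC (439 ± 65.4) and AttB (369 ± 52.8; SD, n = 5 each). Def and Drs did not overlap there, AttC and AttB did, and AttB stood above DptA (102), DptB (90.6) and Dro (60.2), which overlapped among themselves. Mtk (17.0), AttD (16.3) and AttA (14.3) were lowest on HPLC, below Dro and within each other's range.

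Within a diet, some members varied alike and others did not, which is described here without a test. LPHC replicate 2 was the highest LPHC library for AttC, DptA, DptB, Dro, Drs and Def, and HPLC replicate 3 was the highest HPLC library for AttB, AttD, DptA, DptB, Dro and Def but the lowest for Drs and AttC. With values taken on the log2(normalised read count + 1) scale as deviations from the diet mean, Pearson's r over the 10 libraries was 0.91 for DptA with Def, 0.83 for DptA with Dro and 0.64 for DptA with DptB. For Drs it was −0.22 with DptA, −0.41 with Def and 0.07 with Dro. Over all pairs of members r ran from −0.47 (AttA with Drs) to 0.91, and pairs of other genes were not set beside them. These values describe 10 libraries that share depth and handling, and rest in part on LPHC replicate 2 and HPLC replicate 3.

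**Figure D3:**
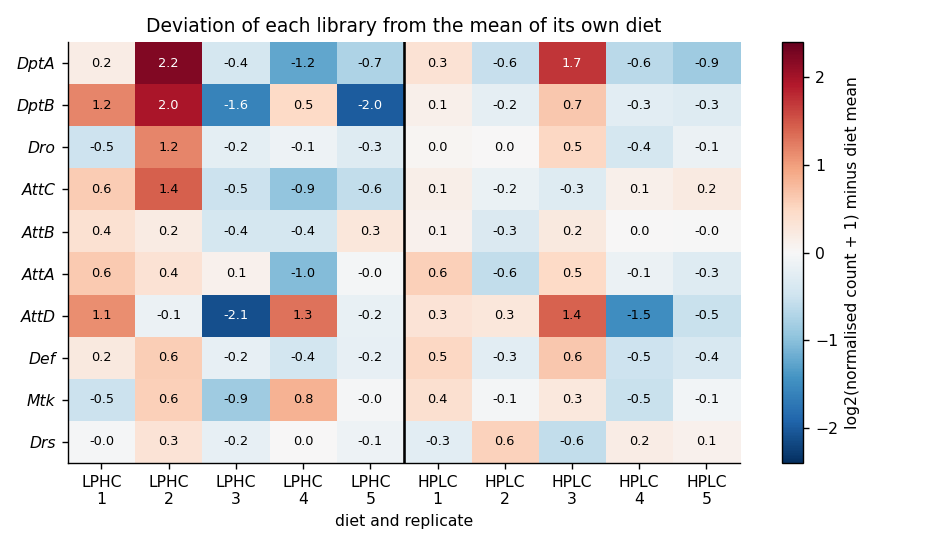
Deviation of log2(normalised read count + 1) from the mean of its own diet for each member (rows) and library (columns). LPHC replicate 2 and HPLC replicate 3 are high in most rows, with DptA at 2.2 and 1.7 above its diet mean, and the row of Drs is high in the first (0.33) and lowest in the second (−0.59).

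Ranked by likeness to the average within-diet deviation of the 7 tested members, the nearest of 8819 other genes were Cyp6d5, a cytochrome P450 (Pearson's r = 0.89, Spearman's rho = 0.79), CG9743 (0.87 and 0.87), mEFTu1, a mitochondrial elongation factor (0.84 and 0.72), Hpd, an enzyme of tyrosine breakdown (0.82 and 0.66), and CG1143 (0.82 and 0.72), over 10 libraries. They are the top of a ranking and carry no test. Without LPHC replicate 2 and HPLC replicate 3, the libraries farthest from the median, r was 0.67, 0.83, 0.67, 0.64 and 0.48. Between diets CG9743 was at 0.03 ± 0.06 on the log2 scale (limma adjusted p = 0.717).

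Other antimicrobial peptide genes were counted from a list of 16 names, 10 of them in the table and 5 tested. Of these, 3 were called higher, against 22.1% of all tested genes, and none lower: Drsl4 and Drsl5, of the drosomycin family, at 2.11 ± 0.23 and 1.41 ± 0.19 (SE, limma adjusted p = 7.28e-06 and 5.86e-05), and CG33470, a Baramicin A precursor gene, at 0.78 ± 0.09 (4.38e-06). IMPPP, its near copy, was at 0.40 ± 0.29 (0.304), and reads of the copies may be shared. Among the cecropins, CecC was at −0.07 ± 0.35 (limma adjusted p = 0.889), while CecA1, under the level for testing, had 2.35 ± 1.94 (LPHC) and 8.03 ± 1.47 (HPLC; SD, n = 5 each; limma adjusted p = 0.00573 without a filter).

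In the Imd route the share of genes called was near that of all genes. Of 17 tested genes of the list 5 (29.4%) were called higher and 2 (11.8%) lower, beside 22.1% and 18.9% of all tested genes, with a median of 0.05. PGRP-LC, the peptidoglycan receptor, rose by 0.66 ± 0.06, the adaptor imd by 0.61 ± 0.07 and Rel, which encodes Relish, by 0.47 ± 0.06 (SE, log2 scale, limma adjusted p = 8.07e-08, 1.12e-06 and 3.56e-06). The other risers were PGRP-SD (3.28 ± 0.10) and PGRP-SA (0.88 ± 0.14), secreted recognition proteins, the latter best known from the Toll route. The intracellular receptor PGRP-LE at −0.09 ± 0.08 and the adaptor Fadd at 0.14 were not called (limma adjusted p = 0.361 and 0.219). The ubiquitin ligase Diap2 (−0.19 ± 0.05) and the kinase Tak1 (−0.14 ± 0.05) were called lower, but under neuron-marker scaling Diap2 lost its call and Tak1 turned to 0.04, its call also lost under TMM; the counts were 7 higher and 0 lower there and 5 and 5 under quantile normalization.

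Of 12 tested brakes and modulators of Imd, 6 were called higher and 1 lower, beside 22.1% and 18.9% of all tested genes, with a median of 0.15. The counts were 6 and 3 under quantile normalization and 8 and 0 under neuron-marker scaling. PGRP-SB1, a peptidoglycan-cleaving amidase, rose by 2.46 ± 0.13, pirk, which removes the receptor from the surface, by 0.83 ± 0.09, PGRP-LF, a decoy receptor, by 0.79 ± 0.10, and PGRP-LB, a secreted amidase, by 0.56 ± 0.07 (SE, log2 scale, limma adjusted p at most 9.96e-06). The gene called lower, the deubiquitinase CYLD, was at −0.17 ± 0.06 and turned to 0.01 under neuron-marker scaling, its call also lost under TMM.

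In the Toll route, 12 of 17 tested genes were called higher, against 22.1% of all tested genes, and none lower, with a median of 0.36. The risers were led by the extracellular part of the chain: GNBP3, which recognises fungal glucans, by 1.66 ± 0.07, the proteases Hayan by 1.57 ± 0.08, SPE by 1.26 ± 0.07 and modSP by 1.06 ± 0.06 (SE, log2 scale, limma adjusted p at most 2.72e-10). Inside the cell, Dif rose by 0.30 ± 0.06 (limma adjusted p = 0.00130). The receptor Tl at 0.02 ± 0.06, the inhibitor cact at 0.06 ± 0.05 and dl, which encodes dorsal, at −0.00 ± 0.07 were not called (adjusted p = 0.848, 0.385 and 0.976). Under quantile normalization 11 were higher and 2 lower, and under neuron-marker scaling 15 and 0. Of 12 tested regulators outside these routes 3 (25%) were called higher, near the 22.1% of all tested genes, and none lower: srp, a GATA factor of fat body and haemocytes (2.18 ± 0.16), Stat92E (0.64 ± 0.07) and foxo (0.36 ± 0.06; SE, limma adjusted p = 2.81e-04). Their list had a median of −0.02.

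**Figure D4:**
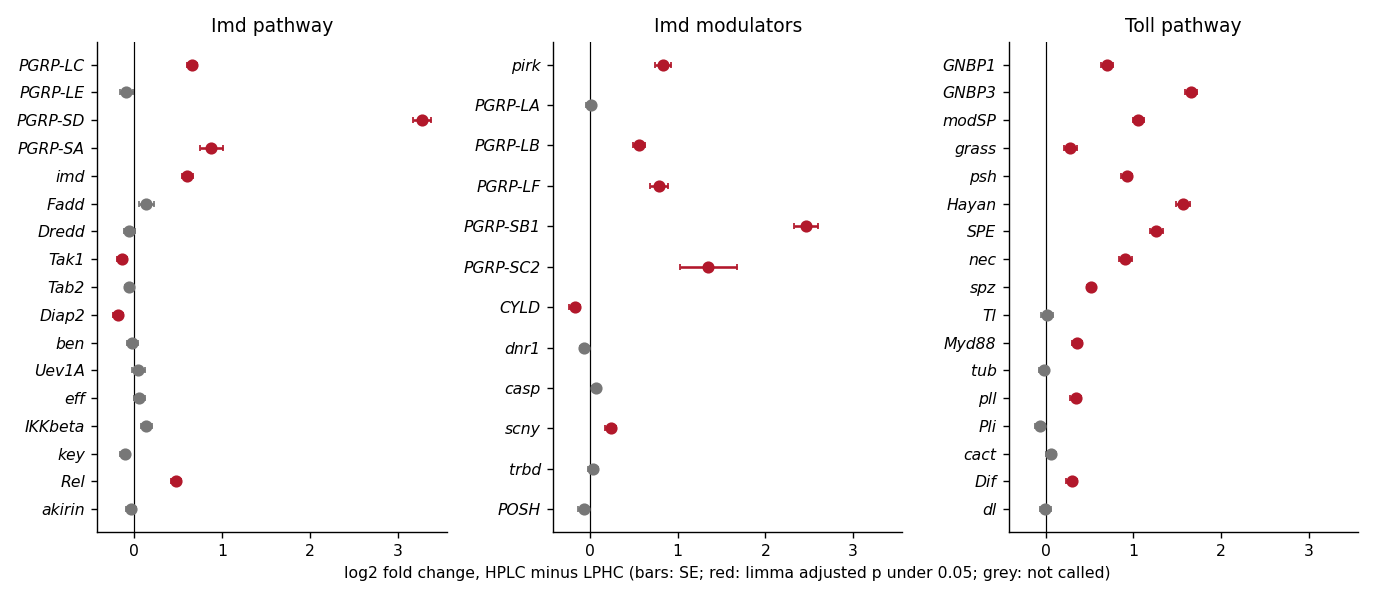
Log2 fold change (HPLC minus LPHC, bars are SE) of tested genes of the Imd pathway, its modulators and the Toll pathway, in order from recognition to nuclear factors where such an order exists; red marks limma adjusted p under 0.05. PGRP-SD at 3.28 and PGRP-SB1 at 2.46 lie farthest right, and Tl, cact and dl lie near 0.

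Many markers of tissues that make antimicrobial peptides moved with the diet in the same libraries. Of 16 tested fat body markers 15 were called higher and 1 lower, beside 22.1% and 18.9% of all tested genes, and the median log2 difference was 2.001; the 19 in the table together took 0.188% to 0.238% of reads on LPHC and 0.841% to 0.977% on HPLC. The 4 with the smallest p were Gnmt (5.39 ± 0.09), CG34166 (4.81 ± 0.08), Lsp1beta, a storage protein (6.44 ± 0.12), and Mtp (1.47 ± 0.06; SE, log2 scale, limma adjusted p at most 1.43e-12). Yp3, a yolk protein, was called lower at −0.32 and not under neuron-marker scaling. Lsp2 and fit, among those called higher, reached the level for testing only through HPLC, with LPHC means of 3.25 and 2.60. Lsp1gamma, Fbp1 and Fbp2, in the table but under that level, had lower means on HPLC. They went from 3.05 to 2.15, 11.4 to 7.93 and 1.87 to 1.19, and were not called in the fit without a filter. Of 20 tested haemocyte markers 9 were called higher and 1 lower, with a median of 0.72 and shares of reads of 0.141% to 0.180% and 0.211% to 0.227%. Those higher included Glt (3.47 ± 0.11), NimB5 (1.45 ± 0.14), srp and eater, a phagocytic receptor (1.19 ± 0.21; limma adjusted p = 5.55e-04), while Hml was at 0.68 ± 0.31 (0.110) and lz was lower at −0.23, a call lost under neuron-marker scaling, where 17 of the 20 were higher. Of 12 tested glia markers 6 were called higher, against 22.1% of all tested genes, and none lower, with a median of 0.24. Under upper-quartile scaling 2 were higher, under quantile 4 and under neuron-marker scaling 9. Indy (0.78 ± 0.06) and Tret1-1 (0.55 ± 0.07; SE, log2 scale) rose most. The glia markers repo, alrm and moody were not called (limma adjusted p = 0.758, 0.648 and 0.937). Within a diet, the libraries with the highest average deviation of the tested members were LPHC replicate 2 (1.13, log2 scale) and HPLC replicate 3 (0.41). There the average was −0.03 and 0.01 for fat body markers and 0.17 and 0.10 for haemocyte markers. By share of reads, fat body markers took 0.238% in LPHC replicate 2, the highest of its diet, and 0.907% in HPLC replicate 3, inside the range of its diet. Haemocyte markers took 0.180% and 0.226% in these libraries. The part of these tissues in the antimicrobial peptide values was not tested, and in whole-tissue RNA fewer cells of a type and less RNA per cell cannot be told apart.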

How the data were processed

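The values deposited by the authors are normalised read counts, a signal at or above 0, for each gene in 10 libraries. HISAT2 is named in the submitters' processing notes. Its version, the counter, the strand setting, the annotation and the build were not given in the sources used here. Coordinates and sequences are therefore left out. All values (100%) were whole multiples of 1 constant per library within a relative tolerance of 1e-06, so each is a whole read count divided by a size factor. Genes have reads in at least 6 libraries.

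Tests used limma 3.58.1 (trend, robust empirical Bayes, R 4.3.3), two-sided, on log2(value + 1) over genes with a mean of at least 10. Log2 fold changes are HPLC minus LPHC and understate changes of low genes. edgeR 4.0.16 and DESeq2 1.42.0 were run on recovered reads. On simulated counts for 9896 genes with this design, limma called 94% of genes raised 2-fold (log2 of 1) and 100% at a log2 of 2. The changed genes were drawn at random, from genes with a median within-diet SD of 0.12 on the log2 scale. That median was 0.53 for the tested members, so these rates do not apply to them. Single values were tested by exact permutation, which cannot go below 0.00794 with 5 libraries against 5. Exon lengths, neighbours and overlaps come from Ensembl release 115 and RefSeq. Any pair of same-diet libraries differed by more than counting error (chi-square over its degrees of freedom, 5.24 to 52.9).

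Members and lists were chosen with earlier results of these data known. All members are named; of other lists up to 4 called genes by smallest adjusted p, or up to 2 where none was called, and key pathway genes always. CecA1, CecC, IMPPP, PGRP-SA, Fadd, Diap2, Tak1, CYLD, Yp3, lz, Hml, magu, Stacl and CG4744 were named after their values were seen. So were Lsp2, fit, Lsp1gamma, Fbp1, Fbp2, PGRP-SC2, PGRP-SC1b, repo, alrm, moody and Amy-p. The Imd list also holds PGRP-SA, better known from the Toll route. Neuron, photoreceptor, muscle and gut lists had 17, 17, 14 and 4 genes tested. Of these 0, 0, 0 and 3 were called higher and 6, 5, 8 and 0 lower, beside 22.1% and 18.9% of all tested genes. The lower counts were 13, 9, 11 and 0 under upper-quartile scaling, beside 3275 of 9896 tested genes. They were 0, 0, 4 and 0 under neuron-marker scaling, beside 203 of 9896. Of the gut genes called higher, Amy-p was tested only through HPLC (means 4.75 on LPHC and 480 on HPLC). Each alternative changed 1 choice: the pseudocount (0.5 or 5), the filter (none, or a mean of 50), the scaling (TMM, upper-quartile, quantile, or by neuron markers), a block for replicate number, plain empirical Bayes, either count model, or 1 library left out.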

Additional observations from a re-analysis of the deposited data

Results flagged for a closer look

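Of 22 sets of 5 libraries examined for a single library far from the rest, 3 held 1 (Dixon ratio over 0.71). The ratio was taken on normalised read counts, whose spread is skewed, and not on the log2 scale of the diet tests. The sets are not independent, since AttA plus AttB stands beside its parts, so no chance rate is given. DptA was at 57.3 in LPHC replicate 2, with the next LPHC library at 13.2, and at 130.0 in HPLC replicate 3, with the next HPLC library at 49.9. Dro was at 46.5 in LPHC replicate 2, with the next LPHC library at 18.2. In the same library AttC, DptB, Drs and Def were also the highest of LPHC. Without both libraries, an alternative added after the data were examined, all 7 tested members were called higher by limma, beside 2293 of 9896 tested genes. Both libraries were picked for their values in these same genes, so these calls are no independent support.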

How the results depend on the processing

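Def, AttB, AttC, Dro and Drs were called higher under each alternative in which they were tested, with log2 fold changes of 4.90 to 5.33, 2.93 to 3.24, 2.64 to 3.43, 0.95 to 1.41 and 0.96 to 1.33. With a mean of at least 50, 4 of the tested members remained in the fit and all were called, beside 2015 of 8823 genes called higher. Def and AttB reached that level only through HPLC (LPHC means 20.04 and 38.7), so that count is no added support. Mtk fell in each fit run without a filter (−1.70 to −0.98, adjusted p at most 0.0152), so the count of members called lower was 1 with no filter. AttA and AttD were called in none. No member turned its direction. Leaving out each library gave 5 to 7 members called higher and 0 lower, 1972 to 2228 genes higher and 1476 to 1916 lower, and 2.70 to 2.94 for AttA plus AttB. Plain empirical Bayes called DptA (adjusted p = 0.0331) and DptB (0.0275), for 7 members in all, beside 2180 of 9896 tested genes called higher. The count of all genes called lower was 3275 under upper-quartile scaling, 3902 under quantile normalization and 203 under neuron-marker scaling (median over all genes −0.11, −0.14 and 0.15 on the log2 scale, against −0.03 as deposited). The replicate numbers did not pair the libraries: deviations of same-numbered libraries correlated at −0.02 to 0.01. With the number as a block 7 members (DptA 0.0399, DptB 0.0414), 2152 genes higher and 1702 lower were called, and AttA plus AttB stayed at 2.84 with an exact permutation p of 0.0625, the smallest that permuting within numbers allows. Few reads limit Mtk (2 to 28 a library), AttA (3 to 18) and AttD (0 to 25).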

Other observations

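In HPLC the 9 members other than Def summed to between 1216 and 1242 normalised read counts in every library, although single members varied up to 9.97-fold (AttD) and 6.17-fold (DptA) between those libraries. On LPHC the same sum ran from 239 to 549. This sum was not a planned result. Its SD of 10.2 on HPLC is smaller than counting error alone would give at such read numbers, so no constant total is read from it.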
